A study of Mus musculus with 32 samples.

Results

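The question addressed here is whether aortic smooth muscle cells with and without Oct4 answered low oxygen alike when they were given vehicle. For each gene the response to hypoxia was taken in a knockout (KO) line and in a wild-type (WT) line, each as hypoxia over normoxia on a log2 scale, and the WT response was subtracted from the KO response. This difference of differences is called the interaction. A negative interaction says that the gene went up less, or down more, in the KO line. It rests on 12 of the 32 libraries of the series, 3 in each of 4 groups: WT and KO cells under vehicle in normoxia, and WT and KO cells under vehicle in hypoxia at 1% oxygen. The cells were primary cultures from C57BL/6 mice, WT for Oct4 (gene symbol Pou5f1) or labelled Oct4 -/-. All groups shared the vehicle. Another 12 libraries have the same design with POVPC, an oxidized phospholipid found in oxidized lipoproteins, in place of the vehicle. They were fitted in the same model and serve as a second measurement of the interaction from other libraries. A single line was used for each genotype, so genotype and line cannot be told apart. The labels call the 3 libraries of a group replicates without saying whether they were separate wells, passages or days, and p-values measure the spread between them only.

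Cells sense oxygen through prolyl hydroxylases, which mark the HIF alpha proteins for destruction through VHL while oxygen is plentiful. In hypoxia HIF escapes and turns on genes for glucose uptake, glycolysis, vessel growth and collagen modification. Other programs commonly respond beside it, among them NRF2, which drives antioxidant and glutathione genes, ATF4, which answers amino acid shortage, and SREBP, which drives sterol and lipid synthesis. Oct4 is a transcription factor best known from pluripotent stem cells.

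Levels are CPM, a gene's reads relative to its library's counts as scaled by edgeR's TMM factor, and changes are log2 values with their standard error (±). Where a gene is said to go from one set of values to another, the first set is normoxia and the second hypoxia, 1 value per library. A gene was called at a false discovery rate (FDR, Benjamini-Hochberg) under 0.05 in edgeR's quasi-likelihood test over all 14496 genes tested. Vehicle libraries held 11618385 to 29426375 counts, in which 3 counts are worth 0.0954 to 0.306 CPM on the scaled library sizes. Pou5f1 had 1 count in 1 WT library and 1 count in 1 KO library and 0 in the other 10, so its counts cannot check the genotype. Contractile genes of smooth muscle summed to 3575 to 3691 CPM in WT normoxia and 1685 to 1857 in KO normoxia, while a defining one, the myosin heavy chain gene Myh11, averaged 5.15 CPM in WT normoxia and under 1 CPM in the other 3 groups. The third KO normoxia library lay closer to a library of KO cells under POVPC and normoxia than to its own group (distance 0.358 against 0.488 and 0.561). The second KO normoxia library also lay nearest to such a library (0.423 against 0.442 and 0.488), and 5095 genes were called without it. With these 2 libraries left out together, chosen after the data were seen, 5261 genes were called, on 1 remaining KO normoxia library. Whether labels of KO vehicle and KO POVPC normoxia libraries were exchanged cannot be told from these counts, and an exchange would touch the interactions under both agents. The third KO hypoxia library was the shallowest, with 14.2% of its counts in the RNA gene Rpph1, and the first KO hypoxia library detected 18311 genes where the other vehicle libraries detected 15522 to 16768. With the third libraries of both KO groups left out together, a choice made after the data were seen, 5714 genes were called in place of 5670.

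Hypoxia responses differed between the lines in 5670 genes, 39.1% of those tested. The interaction was positive in 2788 (19.2%) and negative in 2882 (19.9%), and 2076 of the called genes differed by at least 2-fold between the responses (944 positive, 1132 negative). The median interaction over all genes was 0.03, its standard error had a median of 0.18, and the smallest difference called was 0.21. With library sizes alone as the scaling, which moved the median of all genes to 0.13, 2993 calls were positive and 1991 negative. Without a filter on low counts, 2055 were positive and 3294 negative. In the KO line alone 9481 genes responded to hypoxia (65.4%), and in the WT line alone 9866 (68.1%). Across genes the responses of the lines had a Pearson r of 0.64 and a Spearman rho of 0.66, which is a description, since genes are not independent replicates.

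Most genes that moved in both lines moved the same way. Of 6677 genes called in both lines in 1 direction, 4209 had no called interaction, 1462 responded less in KO and 1006 responded more in KO. A further 682 genes were called in opposite directions, 322 of them up in KO and down in WT and 360 down in KO and up in WT. Among the called interactions, 735 negative ones were genes that rose in both lines but less in KO (median 0.66 in KO and 1.41 in WT), and 727 positive ones were genes that fell in both lines but less in KO (median -0.79 and -1.69). Genes called in WT only made up 726 positive and 612 negative interactions, and genes called in KO only made up 591 and 539. The remaining 52 were called in neither line alone.

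**Figure D1:**
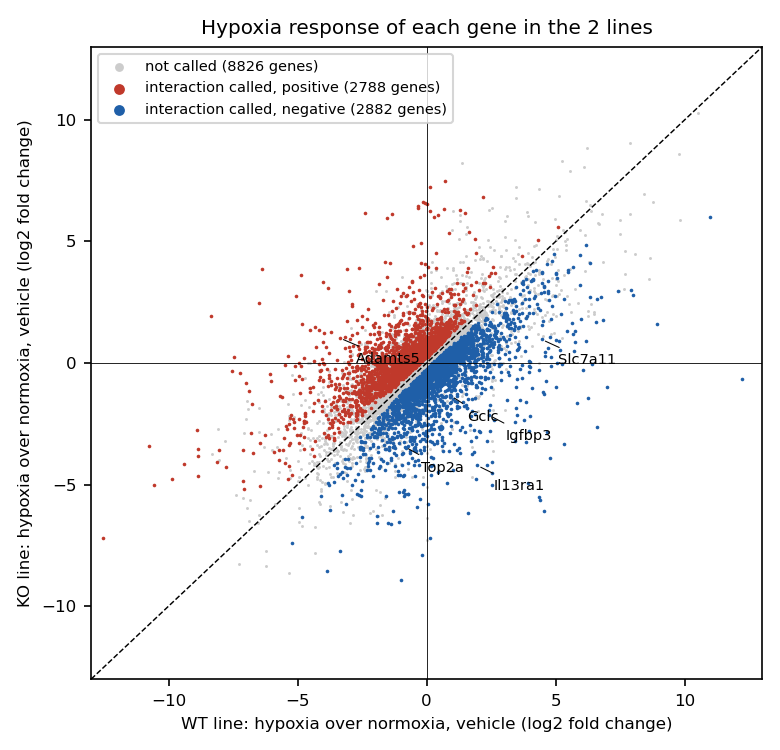
Hypoxia response of each of the 14496 tested genes under vehicle, WT line on the x axis and KO line on the y axis (log2 fold change). Points are genes, red where the interaction was called positive, blue where it was called negative and grey where it was not called. The dashed line marks equal responses. The cloud runs along that line, with Adamts5 above it and Il13ra1, Igfbp3, Gclc, Slc7a11 and Top2a below it.

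Il13ra1, Slc7a11, Gclc and Top2a show some of the forms that a negative interaction took. Positive interactions, 2788 of the 5670 calls, are described further below. Il13ra1 (mm9, chromosome X, 33652134 to 33711256, plus strand) encodes a chain of the receptor for the cytokines IL-4 and IL-13. It was at 5.11, 3.12 and 3.94 CPM in WT normoxia, 16.1, 13.7 and 16.96 in WT hypoxia, 25.4, 21.5 and 22.4 in KO normoxia and 0.970, 1.33 and 1.63 in KO hypoxia. In hypoxia every WT library was higher and every KO library lower than in normoxia, and the KO hypoxia libraries were the lowest of all 12. Its interaction of -6.16 ± 0.30 (FDR 4.21e-15) combined responses of -4.21 ± 0.23 in KO and 1.95 ± 0.19 in WT.

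Slc7a11 (chromosome 3, 50168858 to 50247535, minus strand) encodes the cystine importer that supplies glutathione synthesis, and is a target of both NRF2 and ATF4. It rose from 5.33, 4.77 and 4.48 to 117, 91.3 and 111 CPM in WT and from 24.1, 22.7 and 22.5 to 46.9, 41.9 and 47.4 CPM in KO. No libraries overlapped between the 4 groups: KO cells started higher and ended lower. The rise was 4.46 ± 0.11 in WT and 0.97 ± 0.09 in KO, and the interaction was -3.48 ± 0.14 (FDR 6.67e-18). Gclc (chromosome 9, 77602342 to 77642296, plus strand), the catalytic subunit of the enzyme that limits glutathione synthesis, was at 209, 183 and 176 CPM in WT normoxia and 391.5, 315 and 384 in WT hypoxia. In KO it was at 243, 221 and 235 CPM in normoxia and 89.8, 91.5 and 93.9 in hypoxia. The libraries of normoxia and hypoxia did not overlap in either line, and the directions were opposite, with 0.94 ± 0.08 in WT, -1.35 ± 0.09 in KO and an interaction of -2.29 ± 0.12 (FDR 4.01e-15).

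Top2a (chromosome 11, 98854261 to 98885503, minus strand), the DNA topoisomerase of dividing cells, fell in both lines. Its levels were 41.7, 34.8 and 39.7 CPM in WT normoxia, 25.2, 19.8 and 19.4 in WT hypoxia, 62.4, 57.7 and 55.1 in KO normoxia and 4.81, 5.86 and 5.50 in KO hypoxia. KO libraries were the highest of all in normoxia and the lowest of all in hypoxia, with responses of -3.44 ± 0.12 in KO and -0.85 ± 0.10 in WT and an interaction of -2.60 ± 0.16 (FDR 1.17e-13). In these bulk libraries, fewer dividing cells and less of the RNA per cell cannot be told apart.

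**Figure D2:**
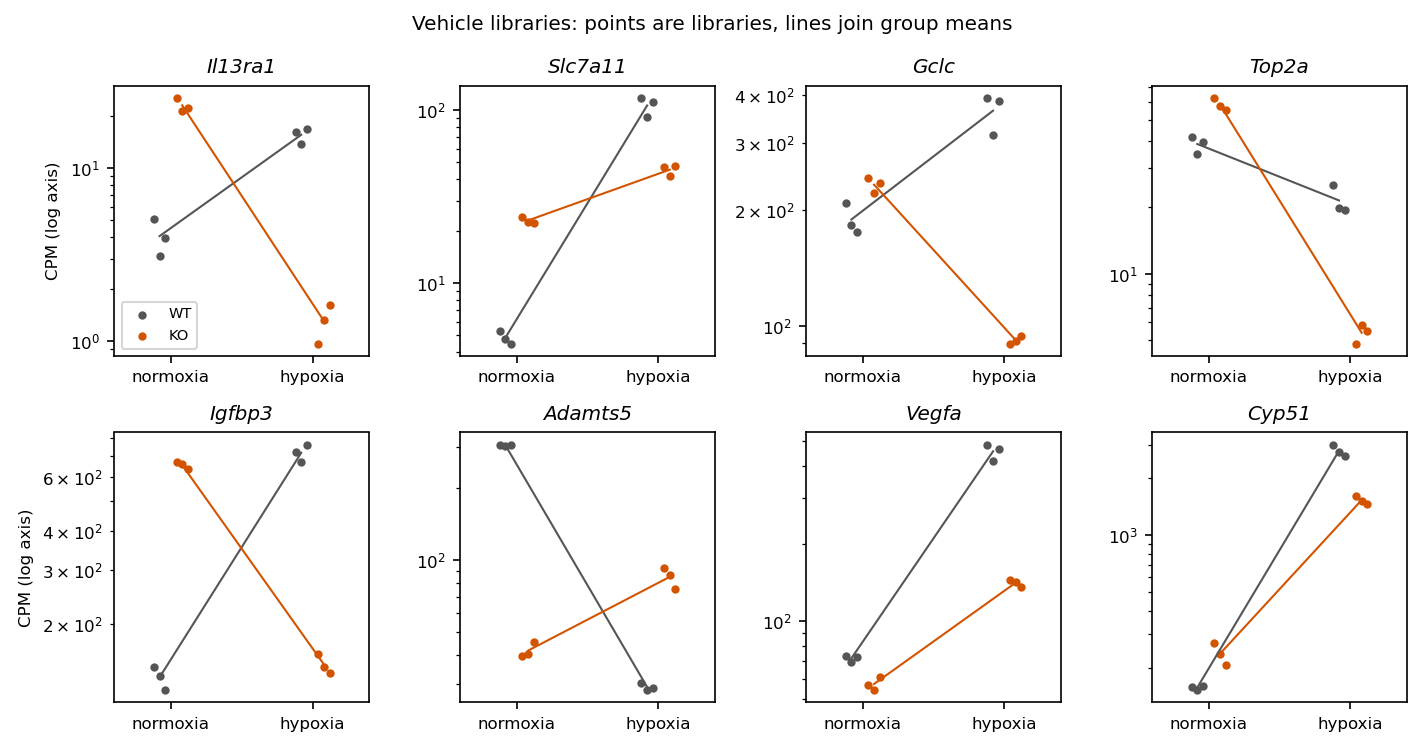
CPM (log axis) of 8 genes in the 12 vehicle libraries, normoxia on the left and hypoxia on the right of each panel, WT in grey and KO in orange. Points are libraries and lines join the means of 3. The lines cross in every panel but that of Vegfa, where KO stays below WT in both states.

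Promoters of genes from the groups described below are printed to show the letters that the main programs are known to read. Each is the 250 bases before a RefSeq transcription start (build GRCm38.p6, strand of the gene), with the motif in capitals. Top2a and Mki67 carry the cell cycle homology letters TTTGAA (or TTCAAA, the same on the other strand) of genes shut off outside division. Slc2a1 and Pfkfb3 carry the hypoxia response core ACGTG and had interactions of opposite sign. Pfkfb3 has 2 windows, and the one printed was chosen because it holds exactly 1 match. Gclm carries an antioxidant response core, TGACNNNGC, here on the other strand. Motifs were searched on both strands.
Top2a, chr11:99024190-99024439, minus strand: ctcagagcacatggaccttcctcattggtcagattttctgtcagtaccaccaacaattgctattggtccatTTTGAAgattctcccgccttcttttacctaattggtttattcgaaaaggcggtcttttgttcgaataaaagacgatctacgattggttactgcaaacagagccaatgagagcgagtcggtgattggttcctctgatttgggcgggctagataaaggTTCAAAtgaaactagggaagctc
Mki67, chr7:135716380-135716629, minus strand: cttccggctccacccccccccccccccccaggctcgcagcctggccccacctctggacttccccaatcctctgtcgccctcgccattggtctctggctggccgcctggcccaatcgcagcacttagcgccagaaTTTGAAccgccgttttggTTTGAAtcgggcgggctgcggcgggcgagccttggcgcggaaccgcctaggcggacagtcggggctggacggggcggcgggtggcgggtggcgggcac
Slc2a1, chr4:119108495-119108744, plus strand: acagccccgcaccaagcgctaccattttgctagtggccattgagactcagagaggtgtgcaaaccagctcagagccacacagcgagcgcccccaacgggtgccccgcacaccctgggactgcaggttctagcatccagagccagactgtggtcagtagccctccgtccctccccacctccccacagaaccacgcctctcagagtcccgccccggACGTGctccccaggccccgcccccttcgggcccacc
Pfkfb3, chr2:11553930-11554179, minus strand: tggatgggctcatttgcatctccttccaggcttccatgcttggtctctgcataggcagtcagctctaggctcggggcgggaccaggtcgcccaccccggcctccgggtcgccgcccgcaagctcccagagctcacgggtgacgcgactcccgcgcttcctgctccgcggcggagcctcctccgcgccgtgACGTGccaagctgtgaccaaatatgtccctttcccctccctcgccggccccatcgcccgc
Gclm, chr3:122245307-122245556, plus strand: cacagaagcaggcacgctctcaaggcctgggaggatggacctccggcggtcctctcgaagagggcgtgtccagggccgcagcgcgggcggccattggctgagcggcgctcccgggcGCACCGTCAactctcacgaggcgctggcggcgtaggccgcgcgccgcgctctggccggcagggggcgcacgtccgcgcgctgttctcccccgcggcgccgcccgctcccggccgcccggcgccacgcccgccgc
Windows were at hand for 10035 of the tested genes. The core ACGTG stood in 16.6% of all 32851 promoter windows and in 24.4% of the tested genes, against 10 of 22 HIF targets of glycolysis and 14 of 21 other HIF targets with a window. Genes with a positive interaction held it in 24.6% of cases and genes with a negative one in 25.3%, so its share was close to that of all tested genes in both directions. The antioxidant core stood in 7 of 23 NRF2 targets (14.1% of tested genes), TTTGAA in 9 of 29 mitotic genes (12.8%), the amino acid response letters TGATGNAAT in 4 of 33 ATF4 targets (0.528%) and the sterol response letters TCACNCCAC in 0 of 15 sterol genes (1.34%). A match is a run of letters and not a shown site.

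Among HIF targets of glucose uptake and glycolysis, the induction by hypoxia was smaller in KO for most genes. Of 24 listed genes, all tested, 15 had a negative and 3 a positive interaction (62.5% and 12.5%, against 19.9% and 19.2% of all genes), with a median of -0.63. The list rose strongly in both lines: 21 genes rose in KO (median 3.12, 32.6% of all genes rose there) and 23 in WT (median 3.71, 32.8% of all genes rose there). Pfkfb3, which makes the activator of glycolysis's committed step, went from 10.2, 10.05 and 8.28 to 251, 215 and 282 CPM in WT and from 24.3, 26.7 and 28.7 to 219, 214 and 179 in KO. Hypoxic levels overlapped between the lines while normoxic KO libraries were all higher, and the interaction was -1.77 ± 0.14 (FDR 3.26e-11). Pgm2, a phosphoglucomutase gene, had -1.02 ± 0.10.

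The 3 positive interactions were those of the glucose transporter Slc2a1, the lactate exporter Slc16a3 and the kinase Pdk1. This kinase holds pyruvate back from oxidation in the mitochondria. Slc2a1 went from 27.5, 26.04 and 28.8 to 352, 349 and 369.5 CPM in WT and from 11.7, 14.7 and 12.4 to 273, 269.8 and 270.3 in KO. KO libraries were lower than WT libraries in both states without overlap, yet rose more, with an interaction of 0.69 ± 0.12 (FDR 4.28e-05). Pdk1 had 0.65 ± 0.10 and Slc16a3 1.19 ± 0.29.

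HIF targets of other functions were split further. Of 28, 16 had a negative and 5 a positive interaction, with a median of -0.38 and a range of -2.91 to 2.07. With library sizes alone as the scaling, 9 were negative and 7 positive, where 1991 of all genes were negative and 2993 positive. For this list and those below, the shares of all genes under vehicle are 19.9% negative and 19.2% positive. Vegfa, the growth factor of blood vessels, was at 73.4, 69.9 and 72.6 CPM in WT normoxia, 482, 418 and 465 in WT hypoxia, 56.7, 54.2 and 60.9 in KO normoxia and 145, 142 and 136 in KO hypoxia. It rose in every hypoxic library, and the hypoxic KO libraries lay between the normoxic and the hypoxic WT libraries, with an interaction of -1.36 ± 0.11 (FDR 8.27e-11). Plod2, a collagen lysyl hydroxylase, was at 147, 143 and 139.6 CPM in WT normoxia, 650.1, 568 and 652 in WT hypoxia, 748, 690.0 and 702 in KO normoxia and 492, 500.2 and 462 in KO hypoxia. It rose in WT and fell in KO, from a normoxic KO level already above that of hypoxic WT cells, and had an interaction of -2.68 ± 0.10 (FDR 5.02e-18).

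The secreted glycoprotein gene Stc2 likewise rose in WT (1.93 ± 0.13) and fell in KO (-0.98 ± 0.14), with an interaction of -2.91 ± 0.19. The transcription repressor gene Bhlhe40 had -2.69 ± 0.17 and rose in both lines. Ndrg1, a stress-induced differentiation gene, rose by 2.84 ± 0.09 in WT and 1.66 ± 0.09 in KO. Other classical targets did not pass the test: Higd1a, a mitochondrial protein gene, went from 14.8, 15.1 and 13.9 to 259, 294 and 244 CPM in WT and from 15.5, 16.5 and 14.4 to 286, 276 and 266 in KO, with libraries of the lines overlapping in both states and an interaction of -0.03 ± 0.11 (FDR 0.858). Egln1, the main oxygen-sensing prolyl hydroxylase, had 0.12 ± 0.12 (FDR 0.461).

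Of 9 tested genes of oxygen sensing itself, 4 had a negative and 1 a positive interaction. Hif1a, the alpha subunit, was at 561, 532 and 579 CPM in KO normoxia and 294, 286 and 287 in KO hypoxia, and at 286, 291 and 294 CPM in WT normoxia and 289, 252 and 278 in WT hypoxia. KO normoxia libraries stood apart above the other 9, and the interaction was -0.86 ± 0.10 (FDR 1.22e-07). The ubiquitin ligase subunit gene Vhl had -0.53 ± 0.13, the hydroxylase gene Egln3 -1.58 ± 0.16, and Epas1, which encodes the second HIF alpha protein and stayed under 6 CPM, rose by 1.19 ± 0.20 in WT and was at 0.19 ± 0.22 in KO (FDR of the interaction 0.00866, and 0.0592 without the second and the third KO normoxia libraries). The positive gene was Hif1an, which encodes an asparagine hydroxylase that restrains HIF (0.43 ± 0.17, FDR 0.0395), whose call was kept in 13 of 25 alternative settings.

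Most NRF2 targets rose in WT, and most had a smaller response in KO. Of 29 tested genes, 25 had a negative interaction (86.2%, against 19.9% of all genes) and 0 a positive one, with a median of -1.11. Their median response was 1.18 in WT, where 22 rose and 3 fell, and 0.24 in KO, where 15 rose and 10 fell. Of all genes, 32.8% rose and 35.3% fell in WT, and 32.6% rose and 32.8% fell in KO. The part of the list that fell in KO was thus close to that of all genes. Hmox1, heme oxygenase, was at 16.6, 17.1 and 15.8 CPM in WT normoxia and 125, 102 and 131 in WT hypoxia, against 33.8, 38.6 and 38.7 in KO normoxia and 93.6, 71.6 and 55.5 in KO hypoxia. It rose in both lines from a higher start in KO, with an interaction of -1.85 ± 0.19 (FDR 5.81e-08).

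Gclm, the modifier subunit of the enzyme that Gclc belongs to, went from 13.2, 16.8 and 15.4 to 44.4, 44.5 and 47.9 CPM in WT and from 18.9, 18.9 and 18.6 to 21.98, 18.1 and 21.3 in KO. WT libraries separated by oxygen and KO libraries overlapped, and the interaction was -1.47 ± 0.15 (FDR 3.25e-09). Pgd, an enzyme of the pentose phosphate pathway, had -2.07 ± 0.15. The ferritin gene Fth1 had -1.71 ± 0.13, a value that is uncertain because near-identical copies of this gene exist and reads mapped to several places were not counted.

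Nfe2l2, which encodes NRF2, was itself induced less: it went from 78.7, 87.2 and 83.95 to 319, 298 and 341 CPM in WT and from 118, 122 and 125 to 184, 185 and 169.6 in KO. KO libraries were higher in normoxia and lower in hypoxia without overlap, with an interaction of -1.38 ± 0.12 (FDR 1.48e-10). Of 8 regulators of the pathway, 3 were negative (Nfe2l2, the partner gene Maff at -1.26 ± 0.14 and the related factor Nfe2l1 at -0.78 ± 0.16) and 1 was positive (the partner gene Mafk at 0.51 ± 0.12).

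Genes of amino acid stress, the targets of ATF4, had 27 negative and 5 positive interactions among 39 tested, with a median of -0.85 (median response 1.41 in WT and 0.77 in KO). Slc7a11 is on this list too. Trib3, a pseudokinase that feeds back on the pathway, went from 4.68, 5.31 and 4.05 to 103, 116 and 105 CPM in WT and from 12.8, 11.8 and 13.3 to 44.2, 39.3 and 40.7 in KO. Again KO cells started higher and ended lower, with an interaction of -2.81 ± 0.16 (FDR 3.35e-14). The leucine transporter gene Slc7a5 had -1.78 ± 0.12 and Atf4 itself -0.47 ± 0.10. The 5 positive interactions were those of the stress proteins Nupr1 (1.38 ± 0.13) and Sesn2 (1.47 ± 0.15), the secreted factor Gdf15 (0.91 ± 0.21), the mTOR inhibitor Ddit4 (0.45 ± 0.12) and Ddit3, the factor CHOP (0.31 ± 0.11, a call kept in 17 of 25 alternative settings).

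Of 23 tested genes of the unfolded protein response, 12 were negative and 1 was positive, with a median of -0.29. Xbp1, a transcription factor of this response, was at 134, 149.5 and 148 CPM in WT normoxia, 156, 182 and 147 in WT hypoxia, 126, 127 and 109 in KO normoxia and 46.3, 42.9 and 45.04 in KO hypoxia. Only the KO hypoxia libraries stood apart, all lower than the other 9, and the interaction was -1.60 ± 0.12 (FDR 9.62e-12). The positive gene was Creld2, which acts in the endoplasmic reticulum (0.58 ± 0.10).

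Sterol synthesis genes rose in hypoxia in both lines and rose less in KO. Of 24 tested genes of cholesterol synthesis and uptake, 23 had a negative interaction (95.8%) and 0 a positive one, with a median of -1.50. The same number, 23, rose in each line, by a median of 4.06 in WT and 2.58 in KO. Acat2, an acetyl-CoA acetyltransferase, went from 20.9, 23.8 and 21.5 to 418, 383 and 360.1 CPM in WT and from 31.4, 32.6 and 31.4 to 144, 126 and 122 in KO. KO libraries were higher in normoxia and lower in hypoxia without overlap, with an interaction of -2.08 ± 0.14 (FDR 1.57e-12).

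Cyp51, the sterol demethylase, went from 159, 152 and 160.4 to 3000.2, 2744 and 2618 CPM in WT and from 269.9, 236 and 206 to 1612, 1522 and 1465 in KO (-1.45 ± 0.14). Every hypoxic KO library lay under every hypoxic WT library, and every normoxic KO library above every normoxic WT library. Nsdhl, a sterol dehydrogenase, had -2.04 ± 0.17.

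Fatty acid genes followed, with 17 negative and 0 positive interactions among 19 tested and a median of -1.09. Elovl6, an elongase of fatty acids, was at 22.4, 22.1 and 22.6 CPM in WT normoxia, 328, 259.7 and 279 in WT hypoxia, 101, 96.02 and 92.1 in KO normoxia and 93.6, 92.2 and 82.9 in KO hypoxia. KO libraries of both states overlapped between the low and the high WT levels, and the interaction was -3.79 ± 0.14 (FDR 2.49e-18). Fasn, fatty acid synthase, rose by 3.42 ± 0.16 in WT and 1.06 ± 0.15 in KO. The desaturase gene Scd1 had -1.90 ± 0.19 and the acyl-CoA synthetase gene Acsl3 -1.77 ± 0.13.

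Genes of mitosis had the most negative median of the lists. Of 35, 28 were negative (80%) and 1 was positive, with a median of -2.00. In KO 32 of the 35 fell (32.8% of all genes fell there), with a median response of -2.24 over the list, while in WT 11 fell (35.3% of all genes) and the median was -0.30. Mki67, the proliferation antigen Ki-67, was at 11.1, 10.5 and 11.5 CPM in WT normoxia, 7.64, 7.14 and 7.72 in WT hypoxia, 14.8, 17.5 and 20.1 in KO normoxia and 1.01, 0.953 and 1.94 in KO hypoxia. Hypoxic KO libraries were the lowest of all, with an interaction of -3.34 ± 0.30 (FDR 3.85e-10). The spindle genes Prc1 and Tpx2 had -2.64 ± 0.26 and -2.39 ± 0.24. The 1 positive gene was the microtubule protein Ckap2, at 13.5, 13.8 and 11.3 CPM in WT normoxia, 10.3, 9.39 and 10.7 in WT hypoxia, 18.5, 13.7 and 13.4 in KO normoxia and 34.8, 35.3 and 37.8 in KO hypoxia (1.59 ± 0.17), which rose in KO and fell in WT.

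Of 34 genes of S phase, 22 rose in WT and 16 in KO, against 32.8% and 32.6% of all genes. Among the 34, 17 had a negative and 1 a positive interaction, with a median of -0.62. Uhrf1, which keeps up DNA methylation in replication, was at 11.99, 9.13 and 10.01 CPM in WT normoxia, 22.8, 17.2 and 18.9 in WT hypoxia, 14.4, 16.4 and 16.2 in KO normoxia and 3.54, 3.95 and 3.26 in KO hypoxia. It rose in WT and fell in KO without overlap of normoxia and hypoxia (-3.03 ± 0.24, FDR 3.08e-11). The helicase loader Cdc6 had -2.38 ± 0.28, the helicase component Cdc45 -1.99 ± 0.23 and the helicase subunit Mcm2 -1.17 ± 0.14. The positive gene was the ribonucleotide reductase Rrm1 (0.29 ± 0.10, FDR 0.02), whose call was kept in 16 of 25 alternative settings.

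The joint list of cell cycle inhibitors and targets of p53 leaned the other way, with 12 positive and 2 negative interactions among 20 and a median of 0.62. Plk2, a kinase induced by stress, went from 226, 219 and 224 to 559, 522 and 505 CPM in WT and from 79.4, 85.1 and 77.3 to 501, 495 and 498 in KO. KO cells started lower without overlap and ended just under the WT libraries, with an interaction of 1.38 ± 0.09 (FDR 1.52e-12). Among the other positive genes were Trp53inp1, Btg2 and Perp, listed as p53 targets, with 1.09 ± 0.12, 1.08 ± 0.12 and 0.85 ± 0.09. The 2 negative genes were both CDK inhibitors, Cdkn1a, which encodes p21 (-0.60 ± 0.13), and Cdkn1b, which encodes p27 (-0.57 ± 0.10). Only 4 of the 20 members had an estimate below 0, so not every CDK inhibitor on the list was negative. None of the positive genes named here is a CDK inhibitor.

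**Figure D3:**
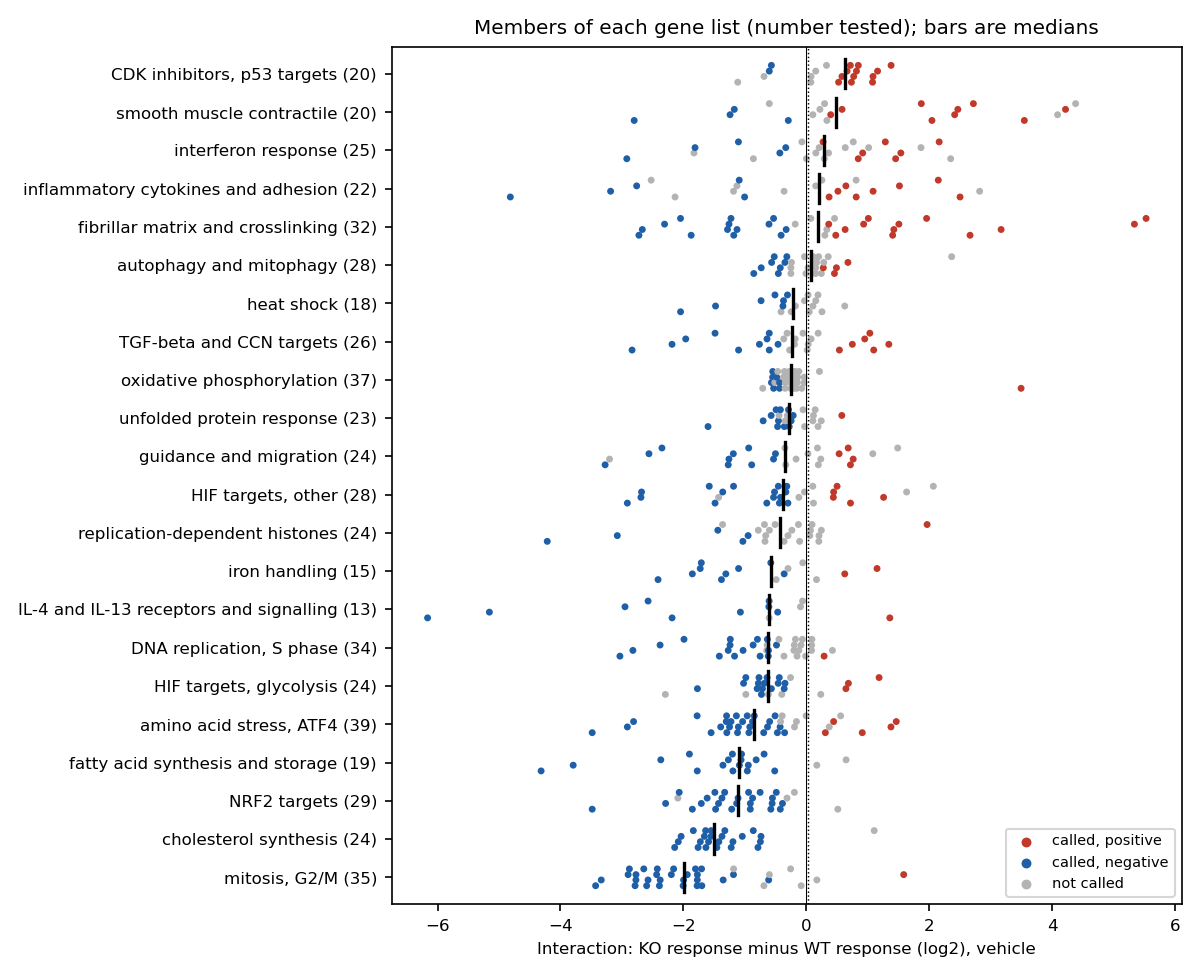
Interaction under vehicle (x axis, log2) of every tested member of the gene lists with at least 13 tested members, ordered by median (black bars), with the number of members in brackets. Points are genes, red or blue where called positive or negative and grey where not called, and the dotted line is the median of all genes, 0.03. The mitosis, cholesterol and NRF2 lists lie to the left with medians of -2.00, -1.50 and -1.11, and the CDK inhibitor and p53 list furthest to the right with 0.62.

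The gene with the smallest p was Igfbp3, which encodes a secreted binder of insulin-like growth factors. It was at 145, 136 and 122 CPM in WT normoxia, 722, 668 and 762 in WT hypoxia, 668, 661 and 636 in KO normoxia and 160.3, 145 and 139 in KO hypoxia. WT rose by 2.42 ± 0.09 and KO fell, at -2.14 ± 0.09, so that the lines changed places, and the interaction was -4.56 ± 0.13 (FDR 1.16e-20). Ly6a, a surface antigen also used to mark adventitial progenitor cells, was at 9.76, 8.87 and 9.03 CPM in WT normoxia, 52.9, 60.3 and 54.9 in WT hypoxia, 296, 273 and 257 in KO normoxia and 54.8, 56.6 and 49.2 in KO hypoxia (-4.96 ± 0.17), so that the lines met in hypoxia.

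O3far1, the receptor for long-chain fatty acids, went from 1.37, 1.46 and 1.66 to 107, 113 and 106 CPM in WT and from 6.56, 5.70 and 4.98 to 11.3, 9.91 and 10.8 in KO (-5.28 ± 0.20). Hypoxic WT libraries stood alone above the other 9. The early response gene Ier3 rose by 3.21 ± 0.09 in WT and was at 0.19 ± 0.09 in KO, which did not pass the test. The acyltransferase gene Agpat5 had -2.29 ± 0.10 and fell in KO from normoxic levels far above those of WT.

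On the positive side the smallest p was that of Adamts5, a protease that cuts the proteoglycan aggrecan. It was at 304, 301 and 305 CPM in WT normoxia, 30.4, 28.4 and 28.97 in WT hypoxia, 39.5, 40.1 and 45.3 in KO normoxia and 92.7, 86.8 and 75.6 in KO hypoxia. The WT line fell and the KO line rose without any overlap of groups, with an interaction of 4.41 ± 0.14 (FDR 9.54e-20). The related protease Adamts1 was at 393, 403 and 396 CPM in WT normoxia, 104, 91.6 and 100.2 in WT hypoxia, 144, 168 and 181 in KO normoxia and 519, 542 and 492 in KO hypoxia (3.67 ± 0.14), again in opposite directions.

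Prrx1, a mesenchymal transcription factor, went from 998, 994 and 962 to 121, 104 and 131 CPM in WT, while KO libraries lay at 487, 514 and 556 in normoxia and 536, 564 and 524 in hypoxia and overlapped (3.11 ± 0.10). The caveolar protein gene Sdpr, the Wnt receptor gene Fzd6 and the membrane protein gene Tmem64 each fell in WT and rose in KO, with 3.21 ± 0.12, 2.60 ± 0.11 and 2.71 ± 0.10. A few genes were at or near 0 in at least 1 group. Kng1, which encodes kininogen, had 0 counts in the 3 WT normoxia libraries and averaged 26.1 ± 1.83 CPM (SD, n = 3) in WT hypoxia, at least 749-fold higher if the normoxic group as a whole is given a floor of 3 counts, and stayed under 0.2 CPM in KO. Mcpt2, a mast cell protease gene, was under 0.5 CPM in WT and in KO normoxia and at 9.74, 8.29 and 9.37 CPM in KO hypoxia.

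Psca, a surface antigen gene, was at 0 in WT normoxia, under 0.8 CPM in WT hypoxia, and fell in KO from 12.5, 10.8 and 8.28 to 1.77, 1.81 and 1.43 CPM. Mme, which encodes the peptidase neprilysin, fell in WT from 10.1, 12.4 and 11.7 to 0.315, 0.439 and 0.406 CPM and stayed under 0.7 CPM in KO. Csgalnact1, an enzyme of chondroitin sulfate synthesis, fell in WT from 9.14, 8.998 and 10.05 CPM to 0 counts, at least 239-fold lower, and in KO from 6.82, 6.57 and 4.98 to 0.548, 0.476 and 0.815 CPM. The nuclear receptor gene Rorb was at 0 in KO normoxia and under 0.5 CPM in KO hypoxia, and at 17.9, 17.2 and 16.2 CPM in WT normoxia and 5.53, 5.16 and 6.84 in WT hypoxia. For such genes the levels are given and not the fitted interaction, which depends on the prior count.

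Of 20 tested contractile genes, 16 fell in WT and 10 in KO, against 35.3% and 32.8% of all genes. In the interaction 9 had a positive and 4 a negative interaction, with a median of 0.49 (median response -1.40 in WT and -0.48 in KO). Acta2, smooth muscle actin, was at 233, 280.4 and 275 CPM in WT normoxia, 30.5, 34.8 and 28.6 in WT hypoxia, 56.03, 56.5 and 62.4 in KO normoxia and 37.2, 39.6 and 38.2 in KO hypoxia. WT normoxia stood alone above the other 3 groups, with an interaction of 2.47 ± 0.27 (FDR 5.95e-07). Cald1, caldesmon, was at 1097, 1108 and 1087 CPM in WT normoxia, 241, 185 and 216 in WT hypoxia, 158, 169 and 189 in KO normoxia and 139.5, 147 and 129 in KO hypoxia (2.05 ± 0.16), with WT normoxia again alone above the other groups.

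Lmod1, which nucleates actin in smooth muscle, had 2.72 ± 0.28. Mylk, the myosin light chain kinase, and Myh11 were under 0.6 CPM in every KO library. Smtn, smoothelin, went against these, at 34.6, 36.3 and 37.9 CPM in WT normoxia, 14.5, 15.2 and 17.7 in WT hypoxia, 64.3, 88.4 and 112 in KO normoxia and 17.97, 16.01 and 14.5 in KO hypoxia (-1.24 ± 0.20), with the highest values in KO normoxia.

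Genes of the fibrillar matrix fell in both lines (26 of 32 in each, against 35.3% of all genes in WT and 32.8% in KO). They were divided in the interaction, with 13 positive and 14 negative calls. Col3a1, the type III collagen chain, went from 7341, 7544 and 7228 to 400.3, 367 and 434 CPM in WT and from 36990.3, 40451 and 39099 to 13044, 14409.6 and 12731 in KO. KO libraries were above all WT libraries in both states and fell less (2.67 ± 0.25, FDR 5.42e-08). Thbs2, thrombospondin 2, was at 55.1, 54.8 and 51.9 CPM in WT normoxia, 0.560, 0.769 and 0.542 in WT hypoxia, 1845, 1869 and 1912 in KO normoxia and 173, 199.8 and 202 in KO hypoxia (3.17 ± 0.22), and the type V chain Col5a2 had 1.51 ± 0.12.

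In the other direction, Col8a1, a collagen of vessel walls, went from 118, 96.6 and 105 to 20.8, 18.3 and 15.9 CPM in WT and from 374, 368 and 354 to 8.27, 10.96 and 10.7 in KO. KO libraries were the highest in normoxia and the lowest in hypoxia (-2.67 ± 0.15, FDR 4.56e-14). The type VI chain Col6a3 had -2.72 ± 0.16. Lum and Eln, in contrast, had positive interactions with WT hypoxia at or near 0 counts. The proteoglycan gene Lum had 0 counts in hypoxic WT libraries against 31.6, 33.9 and 30.4 CPM in normoxia, at least 816-fold lower, and went from 84.9, 74.7 and 70.9 to 0.591, 0.191 and 1.02 CPM in KO. Eln, elastin, was at 86.6, 91.1 and 84.1 CPM in WT normoxia, 2.46, 2.89 and 4.06 in KO normoxia and under 0.2 CPM in hypoxia in both lines.

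Of 26 genes of TGF-beta and its targets, 10 were negative and 6 positive. Tgfb3, a ligand, fell in both lines, with responses of -2.12 ± 0.08 in WT and -0.77 ± 0.08 in KO and an interaction of 1.34 ± 0.11. Ltbp1, which tethers the latent ligand, fell more in KO, with -1.92 ± 0.09 in WT, -3.02 ± 0.10 in KO and an interaction of -1.10 ± 0.13. The inhibitors of differentiation Id1 and Id2 rose in WT and fell in KO, with -1.96 ± 0.16 and -2.83 ± 0.22.

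The receptor chain Il13ra1 did not stand alone on its list: of 13 tested genes of IL-4 and IL-13 signalling, 9 were negative and 1 was positive, with a median of -0.61. Il4ra, the chain that pairs with it, was at 97.8, 89.2 and 93.1 CPM in WT normoxia, 77.2, 72.5 and 82.1 in WT hypoxia, 390.4, 387 and 384 in KO normoxia and 38.5, 47.4 and 38.5 in KO hypoxia. KO libraries were the highest in normoxia and the lowest in hypoxia, as for Il13ra1 (-2.95 ± 0.15, FDR 8.6e-15). The kinase gene Jak1 had -1.07 ± 0.11. The feedback inhibitor gene Socs3 went from 31.8, 32.02 and 27.5 to 93.2, 105 and 107 CPM in WT and from 39.01, 39.2 and 39.4 to 19.8, 22.5 and 24.3 in KO (-2.57 ± 0.14), opposite directions without overlap.

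Inflammatory genes were mixed, with 8 positive and 5 negative among 22 tested. Cxcl12, a chemokine that holds and attracts leukocytes and progenitors, was at 2442, 2528 and 2347 CPM in WT normoxia, 2009, 1797 and 2032 in WT hypoxia, 708, 748 and 822 in KO normoxia and 2595, 2769.8 and 2693 in KO hypoxia. It fell a little in WT and rose in KO, from the lowest to the highest of the groups (2.15 ± 0.11, FDR 3.82e-15). The NF-kappaB inhibitor gene Tnfaip3 had 1.52 ± 0.13. The adhesion molecule gene Icam1, under 7 CPM throughout, rose in WT and fell in KO (-4.82 ± 0.49), and the complement gene C3 fell in both lines and more in KO (-2.76 ± 0.27).

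Of 15 genes of iron handling, 9 were negative and 2 positive. Tfrc, the transferrin receptor, went from 16.6, 15.96 and 15.7 to 569, 497 and 490.0 CPM in WT and from 24.2, 18.9 and 22.5 to 269, 299 and 288 in KO, rising in every library and less in KO (-1.31 ± 0.12). The ferroxidase gene Cp had 1.15 ± 0.12.

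Markers of other cell types were measured beside these groups. Summed macrophage markers lay at 52.5 to 54.2 CPM in WT normoxia, 127 to 167 in WT hypoxia, 205 to 224 in KO normoxia and 278 to 319 in KO hypoxia, with 4 to 10 of 17 genes without counts. Most of the sum was Lgals3, a lectin gene that many cells express, in every group but WT normoxia; its interaction was -1.93 ± 0.15. In WT normoxia the largest member was Cd14, the co-receptor for lipopolysaccharide, at 30.2, 28.6 and 26.6 CPM against 21.5, 21.7 and 22.7 for Lgals3, and the interaction of Cd14 was -0.38 ± 0.18 (FDR 0.0947), which did not pass the test. Summed epithelial markers were at 13.8 to 15.9, 510 to 669, 91.0 to 106 and 260 to 307 CPM in the same order. The keratin gene Krt19 (-4.00 ± 0.16) made up most of the sum in WT normoxia and nearly all of it in the other groups. Summed adventitial fibroblast markers were at 6277 to 6366, 849 to 894, 5013 to 5653 and 1306 to 1382 CPM, and of 12 such genes 5 were positive, among them Pdgfra (2.83 ± 0.15), and 5 negative, among them Cd34 (-4.67 ± 0.39) and Ly6a. Their part in the results was not tested.

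The POVPC libraries, which by their labels share no library with the vehicle comparison, gave a second reading of the same contrast, within the limit on KO normoxia labels given above. There the interaction was called in 4354 genes, 30% of those tested, 15.7% of all genes positive and 14.4% negative. Of the genes called under vehicle, 81.2% had the same sign under POVPC and 2762 were called there too, 48.7% of the vehicle calls and 63.4% of the POVPC calls. Among these 2762, 2534 had the same direction and 228 the opposite one. The difference between the interactions, tested directly, was called in 2000 genes (13.8%, or 6.04% positive and 7.76% negative), of which 1511 were vehicle calls. Without the second and the third KO vehicle normoxia libraries it was called in 1908. In 90.6% of the 2000, the WT response differed more between vehicle and POVPC than the KO response did. This share was not taken again without those KO normoxia libraries, and an exchange of their labels would touch it. The first and the second WT POVPC hypoxia libraries held 13663755 and 8063121 counts, the latter the fewest of all culture libraries. The bearing of depth on the share was not tested.

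**Figure D4:**
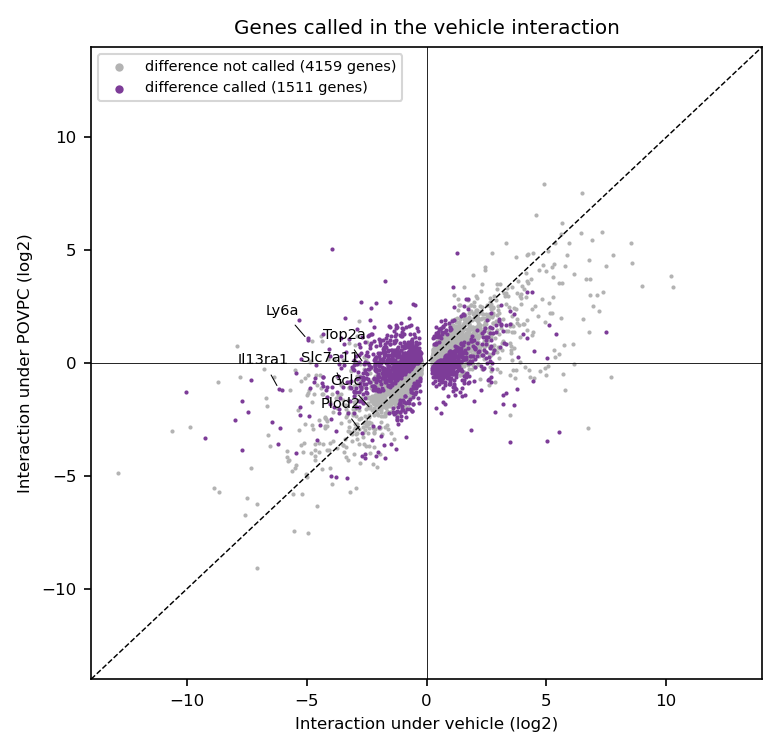
Interaction under vehicle (x axis) and under POVPC (y axis), both log2, for the 5670 genes called under vehicle. Purple points are the 1511 genes whose difference between the agents was called, and the dashed line marks equality. Gclc and Plod2 lie near the line, Top2a near 0 on the y axis, and Ly6a above 0.

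The groups differed in how much of their vehicle interaction was seen again. Gclc had -2.29 under vehicle and -2.08 ± 0.12 under POVPC, and its difference of -0.21 ± 0.17 did not pass the test. Trib3 and Stc2 had -2.91 ± 0.17 and -3.38 ± 0.20 under POVPC, and their differences did not pass the test either. Plod2 had -3.12 ± 0.10 under POVPC, larger in size than under vehicle, with a difference of 0.44 ± 0.14 (FDR 0.0411). Of the NRF2 targets, 13 of 29 were negative and 2 positive under POVPC (median -0.29), and of the ATF4 targets 21 of 39 were negative and 5 positive (median -0.41).

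Of the mitotic genes, 2 of 35 were negative and 6 positive under POVPC, with a median of -0.02, and for 25 the difference between the agents was called negative. Their median response was -2.14 in both lines under POVPC, so that WT under vehicle, at -0.30, was the group apart. Top2a averaged 113 ± 10.9 CPM (SD, n = 3) in WT under POVPC and normoxia and 11.8 ± 1.34 in hypoxia, against 51.5 ± 1.76 and 5.18 ± 0.543 in KO. The interaction of Top2a there was -0.05 ± 0.16 (FDR 0.835), and the difference from vehicle was -2.54 ± 0.23.

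Sterol genes were negative in 5 of 24 cases under POVPC (median -0.17), with a called difference from vehicle in 22. Glycolytic HIF targets had 7 positive and 1 negative calls (median 0.23), and the 28 other HIF targets 10 positive and 6 negative (median 0.12). S phase genes changed side, with 23 of 34 positive and 1 negative under POVPC (median 0.67) and a called difference in 28. Il13ra1 averaged 41.8 ± 5.19 CPM in WT under POVPC and normoxia and 9.08 ± 3.65 in hypoxia, against 22.5 ± 0.678 and 2.30 ± 0.198 in KO. Its interaction was -1.16 ± 0.27 there, in the same direction as under vehicle and smaller, with a difference of -5.00 ± 0.42. Slc7a11 had -1.05 ± 0.13 under POVPC and a difference of -2.43 ± 0.19, and Ly6a turned positive at 1.03 ± 0.16.

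**Figure D5:**
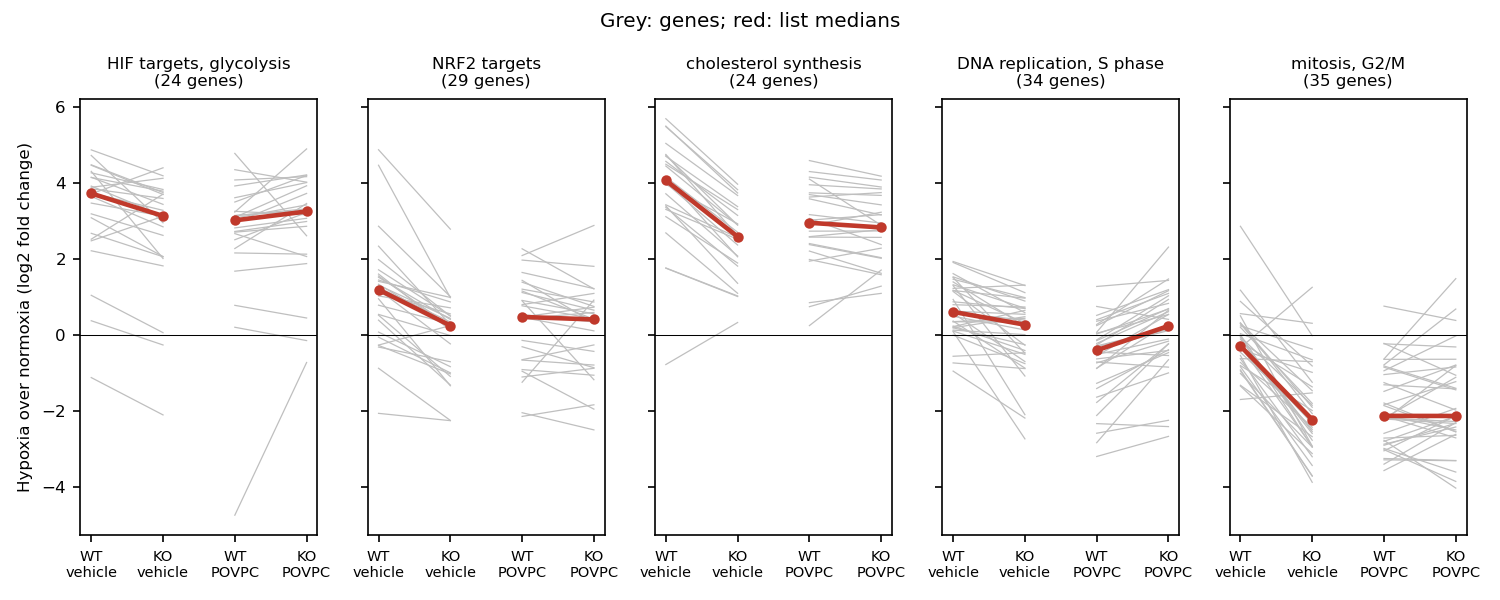
Hypoxia response (y axis, log2 fold change) of the members of 5 lists in WT and KO cells, under vehicle on the left and POVPC on the right of each panel. Grey lines join a gene's responses in the 2 lines, and red lines join the list medians. Under vehicle the medians of mitotic genes lie at -0.30 in WT and -2.24 in KO, and under POVPC at -2.14 in both.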

How the data were processed

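RNA was sequenced from cultured aortic smooth muscle cells, 24 libraries in 8 groups of 3, of which the 12 under vehicle carry the comparison. The deposited values are raw counts per gene (23284 genes), made per the file headers with featureCounts 1.4.4 on exons of an mm9 annotation, without strand and with each mate of a pair counted on its own. Reads mapped to several places were not assigned, so genes with near-identical copies are uncertain, and overlapping or antisense genes cannot be split. Counting each mate makes counts of 1 fragment come in pairs, and halved counts were tried as an alternative. The submitters' processing notes also name CASAVA, STAR, Subread and DESeq2, with settings not given in the sources used here. Total counts per vehicle library ran from 11618385 to 29426375.

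All 24 libraries were fitted together with edgeR 4.0.16 in R 4.3.3 (filterByExpr by group with a minimum count of 10 and a minimum total of 15, TMM scaling, robust quasi-likelihood test), and 14496 genes were tested. P-values were adjusted by Benjamini-Hochberg over these genes for each comparison, on a 2-sided test, with calls at an FDR under 0.05. Standard errors come from the log2 change and its F statistic. On simulated counts, the test recovered 34.3% of 67 genes with a 1.5-fold interaction, 68.7% of 67 at 2-fold and 90.9% of 66 at 4-fold, among 14391 genes. There 200 genes were given an interaction and all others none, while 39.1% of genes were called in the data. The FDR cutoff was therefore stricter in the simulation, and these rates do not carry over to the reported calls. CPM use the TMM-scaled library sizes. Where a group was at 0, the fold is a bound against 3 counts over that group.

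The comparison, its marker genes, the 30 gene lists and the tests were chosen with earlier results of these data known. Named genes were the marker genes, the 10 smallest p and 15 largest changes in each direction among genes averaging at least 1 CPM, the 10 largest opposite responses, at most 4 members per list by p, and any members that a count of 5 or fewer singles out. Some are not reported here. Atf4, Col3a1, Egln1, Fasn, Gclm, Higd1a, Myh11, Mylk, Ndrg1 and Scd1 fall outside that rule and were chosen after their values were seen. Distances between libraries are root mean square differences of log2 CPM over the tested genes. Promoter windows are RefSeq sequences of GRCm38.p6 matched by symbol, and locations are those of the deposited mm9 annotation. Alternatives covered other scalings, DESeq2 1.42.0, filters, a replicate block, a minimum fold, vehicle libraries alone and leaving out libraries.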

Additional observations from a re-analysis of the deposited data

Results flagged for a closer look

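The contrast between lines was called in 5670 genes under vehicle and in 4354 under POVPC, and the difference between these interactions was called in 2000 genes. The values below are that difference (vehicle minus POVPC, log2) for each named gene with an FDR under 0.05 in edgeR's quasi-likelihood test.

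Among genes of HIF and oxygen sensing the negative values were Vegfa at -0.93, Bhlhe40 at -3.82, Pfkfb3 at -2.02, Slc2a1 at -0.97, Egln3 at -0.93, Ndrg1 at -0.83 and Hif1a at -0.61, and the positive ones Plod2 at 0.44 and Pdk1 at 0.74. Among NRF2 and stress genes the negative values were Slc7a11 at -2.43, Fth1 at -1.16, Pgd at -1.32, Hmox1 at -1.69, Gclm at -1.01, Nfe2l2 at -0.95, Maff at -1.63, Xbp1 at -0.62, Tfrc at -1.45 and Cp at -0.75. Among genes of sterol and fatty acid synthesis the negative values were Acat2 at -1.39, Nsdhl at -1.45, Cyp51 at -1.23, Elovl6 at -0.79, Acsl3 at -1.19 and Scd1 at -1.92, and the positive ones Agpat5 at 1.11. Among genes of the cell cycle the negative values were Top2a at -2.54, Mki67 at -2.50, Prc1 at -1.89, Tpx2 at -2.28, Uhrf1 at -2.95, Cdc45 at -1.90, Cdc6 at -4.27, Mcm2 at -1.64, Rrm1 at -0.89 and Perp at -0.46, and the positive ones Plk2 at 1.05 and Trp53inp1 at 0.84. Among contractile and matrix genes the negative values were Smtn at -1.53, Col8a1 at -1.30, Col6a3 at -1.56, Id1 at -0.74 and Id2 at -1.57, and the positive ones Lmod1 at 2.97, Acta2 at 1.61, Thbs2 at 4.58, Eln at 8.57, Tgfb3 at 0.66, Adamts5 at 1.27 and Adamts1 at 1.48. Among genes of cytokine signalling and inflammation the negative values were Il13ra1 at -5.00, Il4ra at -1.66, Socs3 at -2.64, C3 at -3.46, Gbp2 at -2.22 and Stat2 at -1.34. Among the other named genes the negative values were Igfbp3 at -1.16, Ly6a at -5.99, O3far1 at -2.99, Ier3 at -2.70, Psca at -5.90, Krt19 at -1.51, Lgals3 at -2.39, Cd14 at -1.66, Hspb1 at -2.06 and Lamp2 at -0.63, and the positive ones Prrx1 at 0.56, Tmem64 at 0.47, Sdpr at 2.32, Rorb at 6.11 and Pdgfra at 2.26. Of the named genes listed here most differences were negative, but many were picked by their vehicle interaction, so this tally does not describe all genes. Over all 2000 genes with a called difference, 1125 were negative and 875 positive. The fitted values of Eln, Psca and Rorb rest on groups at or near 0 counts.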

How the results depend on the processing

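The number of genes called in the vehicle interaction was 5702 with DESeq2's size factors in edgeR, 6063 with DESeq2, 4984 with library sizes alone, 5349 without a filter and 5650 with counts halved, and 5095 to 5933 with 1 library left out in turn (lowest without the second KO normoxia library, highest without the third). With library sizes alone, 36.4% of the WT responses called were rises, against 48.1% in the fit reported. Without a filter, 35.7% of the called differences between vehicle and POVPC were positive (43.8% as reported; 52.7% with library sizes alone). With a minimum of 2-fold the counts were 2076 for the vehicle interaction, 3787 for the KO response, 4169 for the WT response, 1478 for the POVPC interaction and 933 for the difference between agents.

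The replicate numbers did not pair the libraries, since 2 of 18 same-numbered pairs had correlated deviations over 0.1 (-0.21 to 0.33). The replicate block gave 5617 calls, 5536 of them shared with the fit without it, and 1 called epithelial marker in place of 2.

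Counts of called list members at 2-fold were 3 for glycolytic HIF targets, 8 for other HIF targets, 1 for oxygen sensing, 14 for NRF2 targets, 2 for NRF2 regulators, 17 for ATF4 targets, 1 for the unfolded protein response, 10 for S phase, 4 for CDK inhibitors and p53 targets, 1 for oxidative phosphorylation, 7 for interferon, 8 for TGF-beta, 2 for heat shock, 0 for autophagy, 6 for guidance, 1 for macrophage and 1 for endothelial markers. Library sizes alone gave 5 for the unfolded protein response, 3 for oxidative phosphorylation, 4 for heat shock, 7 for autophagy and 1 for macrophage markers. Endothelial and epithelial markers had 1 call each without a filter, at a mean of at least 5 CPM and with vehicle libraries alone, adipocyte markers 1 at 5 CPM, and epithelial markers 1 with counts halved. With 1 library left out in turn, oxidative phosphorylation had 5 to 13 calls (8 as reported, 13 without the third KO normoxia library), histones 3 to 8, macrophage markers 1 to 4, endothelial markers 0 to 2 and epithelial markers 1 to 2. With the third libraries of both KO groups left out, oxidative phosphorylation had 16 and epithelial markers 1, and with the second and the third KO normoxia libraries left out, 15 and 1. The causes were not tested.

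The medians of the HIF, NRF2, ATF4, S phase, mitosis, cholesterol, fatty acid, CDK inhibitor, contractile and matrix lists kept their sign in every setting run, while those of the inflammatory, autophagy, oxygen sensing, NRF2 regulator, adventitial, epithelial and adipocyte lists changed sign in 1 to 4 settings. No named gene with a called interaction changed sign. The estimate of Higd1a, which was not called, ran from -0.12 to 0.08 across settings. Calls at 1 alternative were lost for 16 named genes, at the minimum of 2-fold for all of these but Mylk, whose interaction was 1.95 without the second KO hypoxia library. Depth limits genes under about 1 CPM, where 3 counts in the shallowest vehicle library are worth 0.306 CPM after TMM scaling.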

Other observations

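Interferon response genes, not described above, were divided between the lines. Of 25 tested, 7 had a positive and 5 a negative interaction, against 19.2% and 19.9% of all genes, with a median of 0.29. Gbp2, a GTPase induced by interferon, went from 14.2, 11.3 and 13.8 to 56.4, 53.5 and 59.4 CPM in WT and from 7.48, 5.61 and 4.18 to 3.67, 2.67 and 3.46 in KO, and WT hypoxia stood alone above the other groups (-2.92 ± 0.21, FDR 3.41e-12). Tap1, a transporter that feeds peptides to MHC class I molecules, went the other way, from 51.7, 52.2 and 50.7 to 18.8, 19.2 and 17.8 CPM in WT and from 41.6, 36.3 and 36.1 to 34.6, 38.8 and 39.2 in KO, where the libraries of the 2 states overlapped (1.45 ± 0.13). Stat2, a transcription factor of the interferon signal, had -1.81 ± 0.16 and its target Ifit2 1.29 ± 0.15.

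Among 24 genes of axon guidance and migration, 10 were negative and 4 positive (41.7% and 16.7%, against 19.9% and 19.2% of all genes). Their median was -0.34. Nrp2, a receptor for semaphorins and VEGF, was at 45.9, 44.6 and 47.02 CPM in WT normoxia, 10.3, 6.26 and 7.62 in WT hypoxia, 475, 511 and 590.1 in KO normoxia and 19.9, 19.8 and 14.6 in KO hypoxia, falling in both lines and most from the high normoxic KO level (-2.35 ± 0.20). Slit2, a secreted guidance factor, rose in WT (2.26 ± 0.16) and was at -0.30 ± 0.15 in KO, which did not pass the test (-2.56 ± 0.22). Of 18 heat shock genes 7 were negative (38.9%) and 0 positive. Among the negative ones were Hspa4l (-2.04 ± 0.13) and Hspb1 (-1.48 ± 0.22). Of 28 genes of autophagy 8 were negative and 4 positive (28.6% and 14.3%). The lysosomal membrane gene Lamp2 was at -0.73 ± 0.09 and the initiation gene Becn1 at -0.56 ± 0.10. Of 37 genes of oxidative phosphorylation 7 were negative and 1 positive (18.9% and 2.70%). Of 24 replication-dependent histone genes 5 were negative and 1 positive (20.8% and 4.17%). In both lists the negative share was close to the 19.9% of all genes, but the positive share lay under their 19.2%. Estimates, called or not, were below 0 in 35 of 37 and 17 of 24 members, with medians of -0.25 and -0.43. Of all 14496 genes tested, 6983 were below 0. Of 7 tested endothelial markers 2 were positive (28.6%) and 0 negative. Of 6 epithelial markers 1 was positive and 1 negative (16.7% each), and of 4 adipocyte markers 1 was positive and 1 negative (25% each). Of 7 genes of library composition (ribosomal, housekeeping and nuclear RNA) 1 was positive and 2 were negative (14.3% and 28.6%).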
